A study of Homo sapiens with 12 samples.

Results

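The genes described here are matrix metalloproteases (MMPs), ADAM and ADAMTS metalloproteases, and the inhibitors that hold them and related serine proteases in check, as messenger RNA in 2 human lung cancer lines. They form a list of 40 genes, and each gene is read from the probe set with the highest mean over the 12 arrays, among those annotated with exactly 1 symbol. Such a probe set was found for 39 of the 40, out of 18417 genes measured in this way, and ADAMTS15 was not analysed here. Of the 39, 38 passed a filter on dim signals and were tested. MMP12 did not pass, and its signal lay between 2.64 and 3.16 on the log2 scale on every array. Each of the 38 was above the filter level on at least 8 arrays, so the filter was in no case passed through the arrays of 1 line alone.

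Affymetrix whole-transcript arrays were run on RNA of 4 groups of 3 samples. H3R is HTB56, a line also known as Calu-6, taken through 3 rounds of selection in mice, where injection into a vein gave nodules in the lung, and H0R is the same line with 0 rounds. A3R and A0R are the corresponding selected and unselected cells of A549, a lung adenocarcinoma line. All 12 samples are given as untreated with 5-azacytidine, and all titles carry "d0", a term the labels leave unexplained. The labels do not say whether a selected line descends from 1 or several nodules, nor whether the 3 replicates were separate cultures, and the p-values reflect the spread of these samples alone. All values are log2 RMA signals as deposited, whose precision is limited by the 3 arrays per group. A signal also depends on its probes, so only the same gene is compared between groups.

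MMPs are zinc enzymes that are made as inactive precursors and cut collagens, laminins, proteoglycans and many non-matrix proteins. Tissue inhibitors of metalloproteases (TIMPs) block them by occupying the active site. ADAMs sit in the membrane and release the outer parts of other membrane proteins, ADAMTS enzymes are secreted and cut proteoglycans, and in epithelia the serine proteases matriptase and prostasin are restrained by the Kunitz inhibitors encoded by SPINT1 and SPINT2. In lung these systems are known for their part in matrix turnover, growth factor release and the protection of the airway from leukocyte elastase.

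Across probe sets, r was 0.988 to 0.995 within a group and 0.949 to 0.961 for arrays from different lines. The A549 identity genes (AKR1B10, AKR1C1, AKR1C2, AKR1C3, ALDH1A1, NQO1 and GCLM) averaged 7.17 to 7.95 per H3R array, 8.03 to 8.77 per H0R array, 12.60 to 12.69 per A3R array and 12.61 to 12.74 per A0R array. The epithelial keratin and adhesion genes KRT8, KRT18, KRT19, KRT7, EPCAM and CDH1 averaged between 8.39 and 8.58 on HTB56 arrays and between 10.69 and 10.89 on A549 arrays, and CDH1 was dim in HTB56, at 4.50 in H3R and 4.55 in H0R. These averages cover opposite changes on the log2 scale (limma adjusted p below 0.05 for each). In selected HTB56 EPCAM rose by 1.02 and KRT7 fell by 0.91, and in selected A549 KRT19 rose by 1.14 and CDH1 fell by 0.85. A0R replicate 2 stood apart. For 25 genes outside the list that are bright on every HTB56 array (above 8) and dim in A549 (median below 5), the median deviation from the A549 median was 0.86 on this array and -0.15 to 0.08 on the remaining A549 arrays. Without it, the 3 members called in A549 and the 13 called for the difference between lines kept their calls, and 23 of the 24 called between unselected lines did, with TIMP2 lost. Values without it stand beside the A549 calls and the main differences between unselected lines.

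In selected HTB56 cells members moved in both directions: MMP1, MMP10, TIMP1, SPINT2, ADAM9, ADAM10, ADAM15 and ADAM19 rose, while MMP2, MMP14, MMP24, TIMP4, ADAM17, ADAM28, ADAMTS9 and ADAMTS12 fell. These are 8 genes higher and 8 lower of 38 tested (limma adjusted p below 0.05 over all 16939 genes tested), in a comparison in which 8.57% of all genes were called higher and 10.9% lower, or 19.5% in either direction. In selected A549 cells MMP7 rose, and SLPI and ADAMTS9 fell, so 3 of 38 were called where 1.75% of all genes were (0.945% higher and 0.809% lower). The members were chosen with earlier results of these data known, so such shares, here and below, do not test the list against all genes. The members' median log2 change was 0.04 in HTB56, against 0.02 over all genes, and 0.00 in A549, against -0.01. The median size of the change without its sign was 0.28 in HTB56 (0.15 over all genes) and 0.17 in A549 (0.10 over all genes). Selected and unselected arrays were fully separated for 18 of 38 members in HTB56, against 34.3% of all genes, and for 7 of 38 in A549, against 12.7%. In RNA from a whole culture, fewer cells that make a transcript and less of it per cell cannot be told apart.

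**Figure D1:**
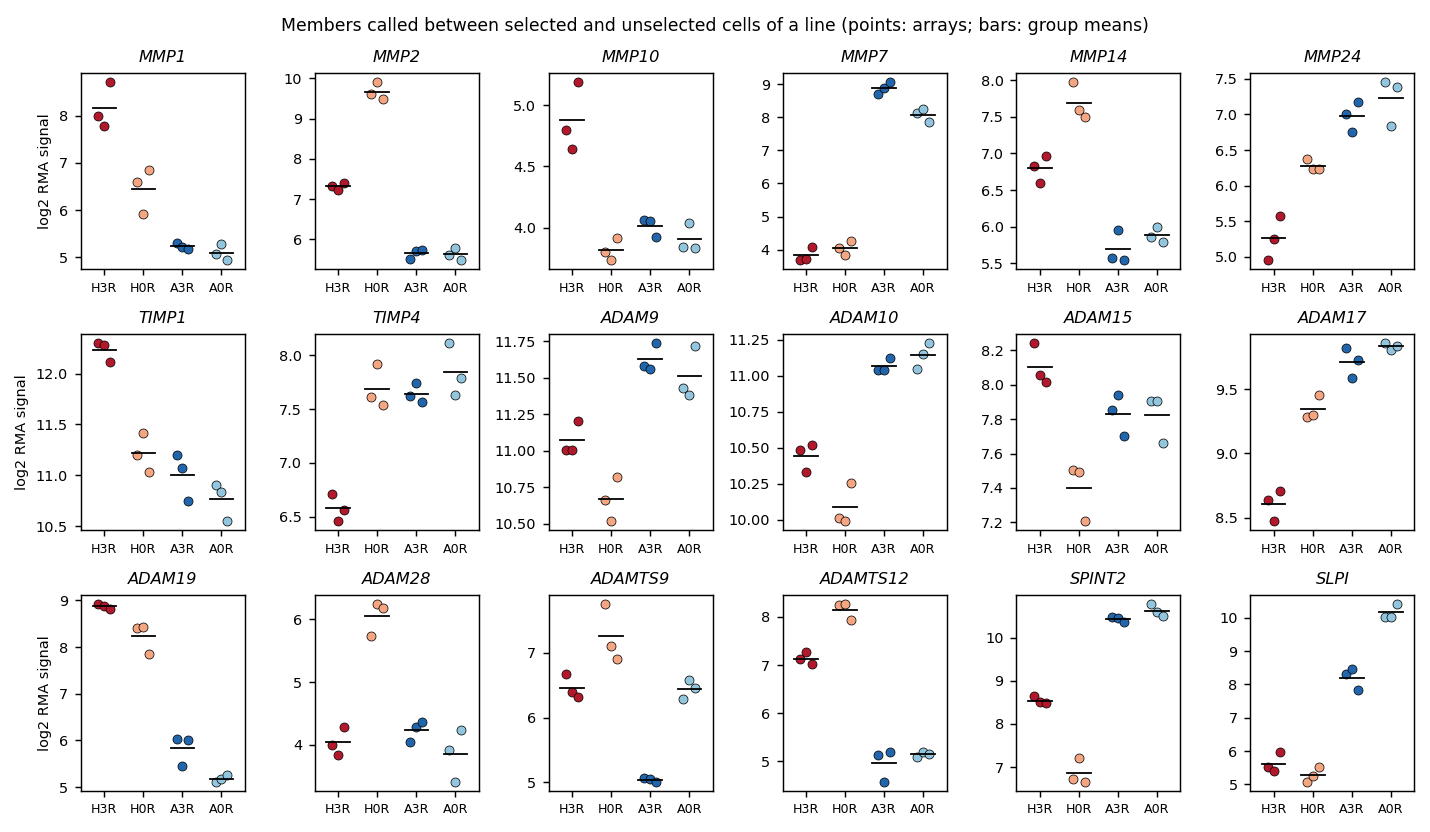
Log2 RMA signal (vertical axis, own scale for each gene) of the 18 members called between selected and unselected cells of HTB56 or A549. Points are the arrays of H3R, H0R, A3R and A0R, and bars are group means. MMP2 lies near 7.32 in H3R and near 9.66 in H0R, and SLPI near 8.20 in A3R and near 10.16 in A0R.

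The selected HTB56 cells were recovered from mice, so markers of possible host cell types were read beside these results. The probe sets are annotated to human genes, and how far they read mouse RNA was not tested, so they do not measure host content. Of 7 fibroblast markers tested, COL1A1, COL3A1, LUM and PDGFRA were called higher in H3R than in H0R and 0 lower. Of all genes, 8.57% were called higher and 10.9% lower. COL1A2, PDGFRB and THY1 were not called (log2 changes 0.05, -0.18 and -0.08). The mean of the 10 listed markers ranged from 5.37 to 5.55 over H3R arrays, from 4.82 to 5.06 over H0R arrays, from 4.53 to 4.61 over A3R arrays and from 4.36 to 4.53 over A0R arrays. LUM lay at 6.61 in H3R and 4.84 in H0R. Other defining fibroblast markers were dim in every group, with DCN at 2.74 in H3R and 2.68 in H0R, POSTN at 2.91 in H3R and 2.94 in H0R, and FAP at 3.00 in H3R and 3.04 in H0R. Of 8 leukocyte markers tested, CD68 and LYZ were called higher in H3R and 0 lower (25%, against 19.5% of all genes in either direction). CD68 was 9.51 in H3R, 8.86 in H0R, 8.54 in A3R and 8.98 in A0R. LYZ was 5.54 in H3R, 3.87 in H0R, 3.63 in A3R and 3.54 in A0R. The pan-leukocyte gene PTPRC read 2.92 in H3R and 2.78 in H0R and did not pass the filter. The leukocyte mean ranged from 5.05 to 5.17 over H3R arrays, from 4.78 to 4.89 over H0R arrays, from 4.92 to 5.01 over A3R arrays and from 4.95 to 5.03 over A0R arrays. Limma called 0 of 7 endothelial markers in either line, and 0 in HTB56 had an unadjusted p below 0.05, and their mean stayed between 4.18 and 4.44 on all arrays. In A549 limma called 0 of 7 fibroblast and 0 of 8 leukocyte markers, with 1 of each (LUM and CD68) at an unadjusted p below 0.05. Only 1.75% of all genes were called in A549, so 0 calls among so few markers say little. The part of host cells in the protease results was not tested.

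MMP2, the gelatinase that cuts denatured and basement membrane collagen, showed the largest change of any member in HTB56. It measured 7.32, 7.24 and 7.39 in H3R against 9.61, 9.90 and 9.48 in H0R, a 5.09-fold fall (log2 change -2.35, SE 0.12, limma adjusted p = 1.01e-08). All 3 selected arrays lay more than 2 log2 units below the lowest unselected array. MMP14, the membrane-bound protease known for activating the MMP2 precursor, fell in the same cells, to 6.82, 6.60 and 6.96 in H3R against 7.97, 7.59 and 7.49 in H0R (log2 change -0.89, SE 0.15, adjusted p = 0.000597). In A549, MMP2 was 5.65 ± 0.12 in A3R and 5.63 ± 0.15 in A0R (SD, n = 3 each), so the selected HTB56 arrays lay between the unselected HTB56 arrays and those of A549.

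MMP1, the interstitial collagenase, moved the other way. It measured 8.0, 7.78 and 8.71 in H3R and 6.61, 5.91 and 6.85 in H0R, a 3.27-fold rise (log2 change 1.71, SE 0.23, adjusted p = 0.000109), and 4.94 to 5.30 over the 6 A549 arrays. MMP10, a stromelysin that can activate other MMP precursors, measured 4.80, 4.64 and 5.19 in H3R against 3.80, 3.74 and 3.92 in H0R (log2 change 1.06, SE 0.13, adjusted p = 4.35e-05). For both genes H3R replicate 3 was the highest array, and the groups did not overlap. MMP10 lay below its array's median signal on every array, and its H0R signals were not far above the filter level of 3.48. MMP13, another collagenase, was 5.41 ± 0.21 in H3R and 5.90 ± 0.40 in H0R (log2 change -0.49, adjusted p = 0.11), while a block for the replicate number gave it an adjusted p of 0.0225. Without H0R replicate 2 the MMP13 change was -0.67 (adjusted p = 0.0392), and without H0R replicate 3 it was -0.28 (adjusted p = 0.396). In all, 3 of 23 alternatives called MMP13 in HTB56. Under the block for the replicate number every member called in either line remained called and MMP13 was added in HTB56.

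MMP7, or matrilysin, a small epithelial MMP without the C-terminal domain of most others, was the MMP that rose in A549. It measured 8.69, 8.89 and 9.06 in A3R against 8.12, 8.25 and 7.85 in A0R (log2 change 0.81, SE 0.15, adjusted p = 0.0116). The call was lost without A3R replicate 3 (change 0.73, adjusted p = 0.0532), and without A0R replicate 2 the change was 0.90 (adjusted p = 0.0178). In HTB56 it read 3.69 to 4.09 in H3R and 3.83 to 4.28 in H0R, with overlapping arrays. These signals were not far above the filter level of 3.48, and changes of dim genes are compressed. The changes of MMP7 differed between the lines, by -1.03 (SE 0.22, adjusted p = 0.00589), as did those of MMP1 (1.57, SE 0.33, adjusted p = 0.00589) and MMP2 (-2.37, SE 0.17, adjusted p = 9.95e-07).

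MMP7, MMP10, MMP1, MMP3, MMP12 and MMP13 neighbour each other on 1 chromosome in the RefSeq table of GRCh38.p14, with MMP20, MMP27 and MMP8 between the first and the rest. Among them MMP7 was called in A549, and MMP10 and MMP1 in HTB56. MMP3 stayed between 3.45 and 3.84 on all arrays, around the filter level of 3.48, so little can be measured of it. MMP7 was also dim in HTB56 (3.83 in H3R and 4.05 in H0R), as was MMP10 in A549 (4.01 in A3R and 3.90 in A0R). Whether these genes move together was not tested. MMP20 was not called in either line, MMP27 and MMP8 did not pass the filter, and the flanking genes BIRC2, TMEM123 and DCUN1D5, which were added after the members' values were seen, were not called either (log2 changes between -0.01 and 0.19). For the 2 of these genes whose promoters could be matched and whose transcripts changed in different lines, the 250 bases before the RefSeq start site (GRCh38.p14) are shown 5′ to 3′, MMP7 at chr11:102530748-102530997 (minus strand) and MMP10 at chr11:102780629-102780878 (minus strand).
MMP7: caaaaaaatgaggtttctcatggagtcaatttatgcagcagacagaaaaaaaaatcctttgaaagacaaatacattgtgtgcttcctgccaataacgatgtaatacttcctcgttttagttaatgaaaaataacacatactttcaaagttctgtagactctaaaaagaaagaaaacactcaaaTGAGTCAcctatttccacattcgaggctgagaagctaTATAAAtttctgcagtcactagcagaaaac
MMP10: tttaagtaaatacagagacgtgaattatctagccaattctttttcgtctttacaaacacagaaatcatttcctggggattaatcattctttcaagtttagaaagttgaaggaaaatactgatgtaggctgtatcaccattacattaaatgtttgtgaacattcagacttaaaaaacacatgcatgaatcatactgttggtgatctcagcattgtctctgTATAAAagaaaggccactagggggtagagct
The capitals mark TATAAA, found at base -30 of MMP7 and -31 of MMP10 counted back from the start, and in MMP7 also TGAGTCA at -67, the letters of an AP-1 element. Searched on both strands, TGAGTCA or TGACTCA was found before 4.2% and TATAAA or TTTATA before 10.7% of 35116 start sites. Both promoters are poor in CpG, with 3 CpG in MMP7 and 2 in MMP10, against a median of 11 over all start sites.

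**Figure D2:**
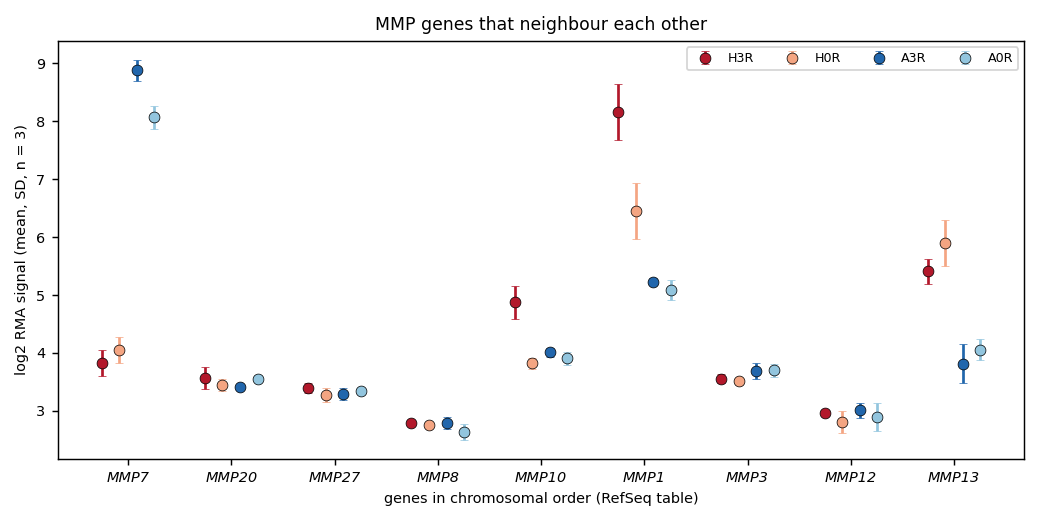
Log2 RMA signal (mean and SD, n = 3) of the 9 neighbouring MMP genes in chromosomal order, for H3R, H0R, A3R and A0R. MMP7 stands at 8.88 in A3R and 8.07 in A0R and near 4 in HTB56, whereas MMP1 stands at 8.17 in H3R and 6.46 in H0R and near 5 in A549.

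The remaining secreted MMPs were not called in either line. MMP9, the other gelatinase, lay between 4.44 and 5.09 on all 12 arrays, with log2 changes of 0.18 in HTB56 and 0.04 in A549. MMP11, or stromelysin-3, was 5.57 ± 0.13 in H3R and 5.71 ± 0.14 in H0R, and 5.80 ± 0.23 in A3R and 5.52 ± 0.18 in A0R. MMP19 (4.57 to 5.02) and MMP28 (4.95 to 5.36), also called epilysin, stayed within less than 0.5 log2 units over all arrays. MMP9, MMP19 and MMP28 lay below their array's median signal on every array.

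Among the membrane-type MMPs, MMP24 fell beside MMP14 in HTB56. It measured 4.96, 5.26 and 5.58 in H3R against 6.37, 6.23 and 6.24 in H0R (log2 change -1.01, SE 0.18, adjusted p = 0.000858), and 6.98 ± 0.21 in A3R and 7.23 ± 0.34 in A0R. MMP15, which was brighter in A549, was not called in HTB56 (log2 change 0.24, adjusted p = 0.396) nor in A549 (0.28, adjusted p = 0.65). MMP17, which is held by a lipid anchor, differed by 0.01 in HTB56 and by 0.06 in A549 and was not called. MMP16 lay between 3.18 and 3.69, around the filter level of 3.48, so little can be measured of it.

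Of the 4 TIMPs, TIMP1 rose and TIMP4 fell in selected HTB56 cells. TIMP1, a secreted inhibitor of most soluble MMPs, measured 12.30, 12.29 and 12.12 in H3R against 11.20, 11.41 and 11.03 in H0R (log2 change 1.02, SE 0.14, adjusted p = 0.000117), and all 3 selected arrays were above every other array of the series. TIMP4 measured 6.71, 6.46 and 6.57 in H3R against 7.61, 7.92 and 7.53 in H0R (log2 change -1.11, SE 0.14, adjusted p = 4.36e-05), and all 3 selected arrays were below every other array. TIMP2, which blocks MMP2 and also takes part in its activation by MMP14, was 9.22 ± 0.05 in H3R and 9.42 ± 0.15 in H0R (log2 change -0.21, adjusted p = 0.364). In A549 the log2 changes were 0.24 for TIMP1, 0.29 for TIMP2, -0.40 for TIMP3 and -0.20 for TIMP4, and limma called none of them, with 1 (TIMP2) at an unadjusted p below 0.05. Without A0R replicate 2 they were 0.16 for TIMP2, 0.10 for TIMP3, whose sign turned, and -0.31 for TIMP4.

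TIMP3, the TIMP that binds to the matrix and also blocks ADAM17, separated the lines and not the selection. It measured 10.59, 10.33 and 10.52 in H3R, 10.61, 10.66 and 10.53 in H0R, 5.30, 4.46 and 5.70 in A3R, and 5.30, 6.57 and 4.80 in A0R. The highest A549 value is that of A0R replicate 2, the array that stood apart. Unselected HTB56 exceeded unselected A549 by 5.05 (SE 0.35, adjusted p = 1.88e-08), and by 5.55 (SE 0.27) without that array. A second, dimmer TIMP3 probe set gave 7.55 to 8.10 in HTB56 and 3.94 to 4.52 in A549.

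The TIMP promoters are shown because their members went 3 ways, TIMP1 higher and TIMP4 lower in selected HTB56 and TIMP3 far lower in A549 than in HTB56. They are the 250 bases before the RefSeq start (GRCh38.p14) of TIMP1 at chrX:47582186-47582435 (plus strand), TIMP3 at chr22:32801455-32801704 (plus strand) and TIMP4 at chr3:12158913-12159162 (minus strand). They hold no capitals, since none of the exact strings searched above was found in them. Variants of those letters were not searched.
TIMP1: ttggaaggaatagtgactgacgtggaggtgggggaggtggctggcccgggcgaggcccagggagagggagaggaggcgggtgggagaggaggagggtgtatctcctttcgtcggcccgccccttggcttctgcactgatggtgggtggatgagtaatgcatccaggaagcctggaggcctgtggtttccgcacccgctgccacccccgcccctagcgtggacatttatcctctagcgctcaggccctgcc
TIMP3: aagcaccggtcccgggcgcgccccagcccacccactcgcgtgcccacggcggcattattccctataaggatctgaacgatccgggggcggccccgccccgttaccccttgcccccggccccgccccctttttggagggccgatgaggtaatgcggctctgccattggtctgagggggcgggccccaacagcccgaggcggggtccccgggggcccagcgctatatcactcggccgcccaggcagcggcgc
TIMP4: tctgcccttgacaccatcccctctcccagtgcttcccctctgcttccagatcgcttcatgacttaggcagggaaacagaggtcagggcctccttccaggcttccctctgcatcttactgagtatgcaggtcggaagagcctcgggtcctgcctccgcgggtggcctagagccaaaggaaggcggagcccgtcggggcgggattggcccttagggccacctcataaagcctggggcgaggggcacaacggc
TIMP3 has 26 CpG in this window, above the 75th percentile of 23 over all start sites, TIMP1 has 12 and TIMP4 has 11. Each of these 3 genes lies inside a synapsin gene, TIMP1 in SYN1, TIMP3 in SYN3 and TIMP4 in SYN2, by the RefSeq table. The synapsins were looked at after the members' values were seen. SYN1, a gene of synaptic vesicles, was 5.58 ± 0.06 in H3R and 6.61 ± 0.11 in H0R (log2 change -1.03, SE 0.12, adjusted p = 3.26e-05), opposite in sign to TIMP1. SYN2 and SYN3 differed by 0.03 and 0.09 in HTB56 and were not called.

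Of the 8 ADAMs, 4 were called higher and 2 lower in HTB56, where 8.57% of all genes were called higher and 10.9% lower. ADAM17, the main sheddase of tumour necrosis factor and of several EGF receptor ligands, measured 8.64, 8.48 and 8.71 in H3R against 9.28, 9.30 and 9.46 in H0R (log2 change -0.74, SE 0.10, adjusted p = 0.000115). ADAM10, which cuts Notch receptors and cadherins, measured 10.49, 10.33 and 10.52 in H3R against 10.01, 9.99 and 10.26 in H0R, a rise of 0.36 (SE 0.10, adjusted p = 0.0241). The 2 related sheddases thus moved in opposite directions in the same cells, with no overlap between the arrays of either. The ADAM10 call was lost without H0R replicate 1 (0.32, adjusted p = 0.0962) or 2 (0.31, 0.102) or H3R replicate 1 (0.34, 0.078) or 3 (0.32, 0.0889).

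ADAM28, a protease known from lymphocytes and lung tumours, measured 4.01, 3.84 and 4.29 in H3R against 5.73, 6.25 and 6.18 in H0R, a 4.02-fold fall (log2 change -2.01, SE 0.20, adjusted p = 4.72e-06). Its selected HTB56 arrays overlapped the A549 arrays, which ranged from 3.41 to 4.37. ADAM15, an ADAM with an integrin-binding motif, measured 8.24, 8.06 and 8.02 in H3R against 7.50, 7.49 and 7.21 in H0R (log2 change 0.71, SE 0.12, adjusted p = 0.000632). ADAM9, a widely expressed sheddase, measured 11.004, 11.003 and 11.203 in H3R against 10.664, 10.518 and 10.816 in H0R (log2 change 0.40, SE 0.12, adjusted p = 0.0263). The ADAM9 call was lost without H0R replicate 1 (0.40, adjusted p = 0.0706) or 2 (0.33, 0.121) or H3R replicate 3 (0.34, 0.109).

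ADAM19, or meltrin beta, measured 8.93, 8.88 and 8.81 in H3R against 8.41, 8.43 and 7.86 in H0R, a rise of 0.64 (SE 0.17, adjusted p = 0.0134). Without H0R replicate 3, its lowest array, the change was 0.45 (adjusted p = 0.0626). In A549 it measured 6.02, 5.45 and 6.01 in A3R against 5.11, 5.18 and 5.25 in A0R, a change of 0.65 (SE 0.17) that did not pass the threshold (adjusted p = 0.0727), although the arrays did not overlap. Without A3R replicate 2 that change was 0.84 (adjusted p = 0.014), and without H0R replicate 3, which enters only through the shared spread, it was 0.65 (0.0294). The difference of the 2 changes was -0.01, with a 95% confidence interval from -0.51 to 0.49. ADAM8, known from leukocytes, differed by -0.09 in each line, and ADAM12 by -0.08 in HTB56 and -0.30 in A549 (adjusted p = 0.452).

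ADAMTS9, which cuts aggrecan and versican, was the member that fell in both lines. It measured 6.68, 6.39 and 6.31 in H3R against 7.75, 7.10 and 6.90 in H0R (log2 change -0.79, SE 0.18, adjusted p = 0.00497), and 5.06, 5.04 and 5.01 in A3R against 6.29, 6.58 and 6.46 in A0R (-1.40, SE 0.18, adjusted p = 0.000483). The groups did not overlap in either line, and without A0R replicate 2 the A549 change was -1.33 (adjusted p = 0.00403). The difference of the 2 changes, 0.61 (95% confidence interval 0.08 to 1.14), did not pass the threshold (adjusted p = 0.14), and without H0R replicate 1, the highest array, it was 0.86 (adjusted p = 0.00812). ADAMTS12, which cuts the cartilage protein COMP, measured 7.12, 7.27 and 7.01 in H3R against 8.26, 8.27 and 7.93 in H0R (log2 change -1.02, SE 0.15, adjusted p = 0.000229). ADAMTS6 spanned 5.27 to 6.32 within the HTB56 arrays with no call (log2 change 0.12, SE 0.24). ADAMTS1 and ADAMTS5 read 4.06 to 4.76 and 3.34 to 3.65 over all arrays, the range of ADAMTS5 enclosing the filter level.

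**Figure D3:**
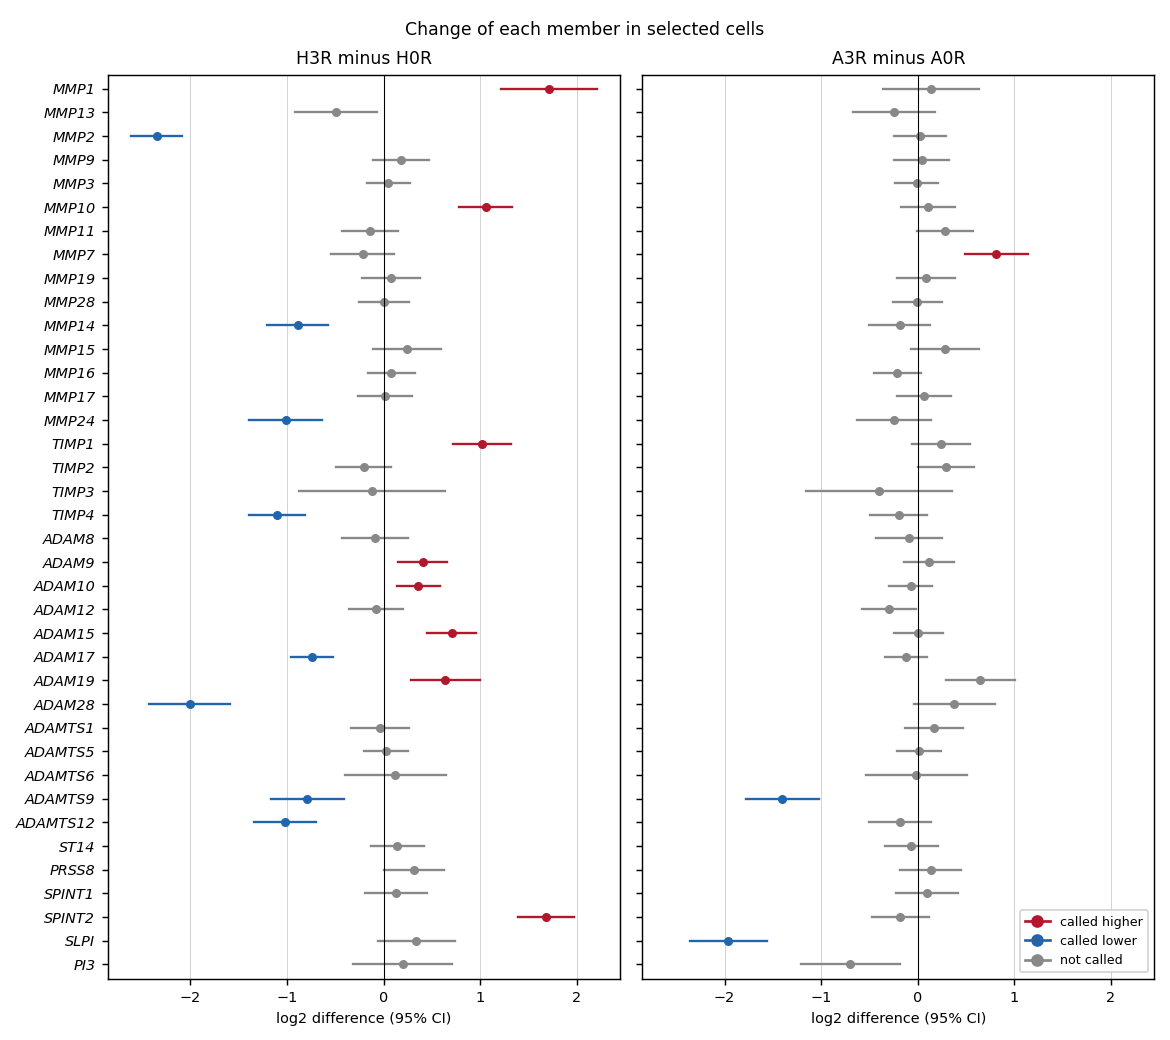
Log2 difference with its 95% confidence interval for the 38 tested members, H3R minus H0R on the left and A3R minus A0R on the right. Red marks genes called higher, blue lower and grey not called: 8, 8 and 22 in HTB56, and 1, 2 and 35 in A549.

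SPINT2, a membrane-bound Kunitz inhibitor of matriptase, prostasin and hepsin-type proteases, rose 3.21-fold in HTB56. It measured 8.65, 8.50 and 8.48 in H3R against 6.71, 7.21 and 6.66 in H0R (log2 change 1.68, SE 0.14, adjusted p = 8.32e-07). The selected HTB56 arrays lay between unselected HTB56 and A549, where SPINT2 was 10.44 ± 0.06 in A3R and 10.62 ± 0.15 in A0R. Its relative SPINT1 was 5.19 ± 0.14 in H3R and 5.06 ± 0.20 in H0R, and was not called. The target proteases were near the lower part of the signal range in every group, ST14 (matriptase) between 4.61 and 5.12 and PRSS8 (prostasin) between 4.37 and 5.03, both below their array's median on all 12 arrays. PRSS8 differed by 0.31 in HTB56 with arrays that did not overlap (adjusted p = 0.173). Of 22 alternatives 2 called it, with a limma adjusted p of 0.0449 without A3R replicate 3 and 0.0426 in the other.

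SLPI, a secreted inhibitor of neutrophil elastase that protects the airway surface, fell 3.89-fold in selected A549 cells. It measured 8.31, 8.45 and 7.83 in A3R against 10.02, 10.04 and 10.42 in A0R (log2 change -1.96, SE 0.19, adjusted p = 3.49e-05), and without A0R replicate 2 the change was -2.02 (adjusted p = 0.000259). In HTB56 it was 5.63 ± 0.29 in H3R and 5.29 ± 0.23 in H0R. PI3, or elafin, a related elastase inhibitor, measured 5.55, 5.43 and 5.66 in A3R against 5.86, 5.86 and 7.01 in A0R. These arrays did not overlap, but the change of -0.70 (SE 0.24) did not pass the threshold (adjusted p = 0.243), and A0R replicate 3 lay far above the other A0R arrays. Without that array the PI3 change was -0.31 (SE 0.14, adjusted p = 0.414). PI3, SLPI and MMP9 lie on 1 chromosome arm in the RefSeq order. Of the 38 genes from PI3 to MMP9, 33 had a probe set of 1 symbol, and 23 besides the members were tested. Limma called 0 of these 23 in A549, where 1.75% of all genes were called, and 0 in HTB56, where 19.5% were. These neighbours were added after the members' values were seen.

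The question whether selection changed a member differently in the 2 lines was tested as the difference of the 2 changes, HTB56 minus A549. Of 38 members, 6 were called higher and 7 lower, where 11.8% of all genes were called (5.22% higher and 6.58% lower). Beside MMP2, those of ADAM28 (-2.39, SE 0.28, adjusted p = 5.27e-05), SLPI (2.30, SE 0.26, adjusted p = 4.66e-05) and SPINT2 (1.86, SE 0.19, adjusted p = 1.92e-05) were the largest in size. MMP14 had the largest adjusted p of the 13 (-0.70, SE 0.21, adjusted p = 0.0422). Its adjusted p rose above the threshold, to between 0.0586 and 0.115, when H3R replicate 1 (-0.72) or 2 (-0.60), H0R replicate 1 (-0.56) or 2 (-0.75), A3R replicate 2 (-0.57) or A0R replicate 1 (-0.69) or 3 (-0.66) was left out. Those of TIMP1 (0.77, adjusted p = 0.0191) and ADAMTS12 (-0.84, adjusted p = 0.0189) were lost without A0R replicate 1 (0.70, 0.0517) and without H0R replicate 2 (-0.78, 0.0532). With the replicate block ADAM10 (0.43, adjusted p = 0.016), MMP24 (-0.77, 0.0284) and TIMP2 (-0.50, 0.0307) were called as well. MMP24 was also called without A0R replicate 1 (-0.88, adjusted p = 0.0484), A3R replicate 2 (-0.88, 0.0498) or H3R replicate 3 (-0.92, 0.0256), and ADAM10 without H0R replicate 3 (0.52, 0.0377).

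The 2 lines also differed in these genes. In H3R against A3R, after selection, 11 of 38 members were called higher and 12 lower, where 24.9% of all genes were higher and 19.7% lower (44.6% in either direction). In H0R against A0R, before selection, 12 were higher and 12 lower (24.9% and 20.3% of all genes, 45.2% in either direction). The lines were fully separated for 26 of 38 members in each comparison, against 51.6% of all genes after selection and 53.2% before it. The 2 comparisons between lines share no array with each other, but each shares its arrays with the comparisons within lines, so their values are set side by side.

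In both comparisons HTB56 carried more TIMP3, MMP2, ADAM19, ADAMTS12, ADAMTS6, MMP13, MMP14, MMP1, ADAMTS9 and TIMP1. In both, A549 carried more SLPI, MMP7, SPINT2, PI3, MMP15, MMP24, MMP17, ADAM9, ADAM10, ADAM12 and ADAM17. MMP2 differed by 1.66 after selection (SE 0.12, adjusted p = 4.91e-08) and by 4.03 before it (SE 0.12, adjusted p = 3.65e-12). SLPI differed by -2.57 after and by -4.87 before (SE 0.19 for each), and SPINT2 by -1.90 after and -3.76 before (SE 0.14 for each). MMP1 and MMP7 stood further apart after selection, MMP1 at 2.93 after and 1.36 before, and MMP7 at -5.05 after and -4.02 before. ADAM28 differed by -0.19 after selection (adjusted p = 0.479) and was higher in HTB56 before it (2.20, SE 0.20, adjusted p = 2.79e-07). Without A0R replicate 2 the differences between unselected lines were 4.11 for MMP2, -4.93 for SLPI, -3.78 for SPINT2, 1.45 for MMP1, -3.93 for MMP7 and 1.97 for ADAM28, and all of these remained called. TIMP4 and MMP10 differed after selection (-1.06 and 0.86, adjusted p = 1.41e-05 and 6.7e-05), while before it their differences were -0.16 and -0.09 (adjusted p = 0.389 and 0.638), or -0.26 and -0.02 without A0R replicate 2.

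Of the 24 members called between unselected lines, 22 kept the call under every alternative, and TIMP1 and TIMP2 did not. TIMP1 (0.45, adjusted p = 0.0151) was not called without A0R replicate 3 (0.35, 0.0739) or H0R replicate 2 (0.36, 0.0783), nor with cyclic loess (0.33, 0.0672). TIMP2 (0.42, adjusted p = 0.0184) was not called without A0R replicate 2 (0.29, 0.101), H0R replicate 1 (0.35, 0.0811) or H0R replicate 2 (0.40, 0.0552), nor with cyclic loess (0.27, 0.072). SPINT1 (-0.32, adjusted p = 0.104) was called under 4 of 22 alternatives, with a lowest limma adjusted p of 0.0311. Among these were the fits without A3R replicate 3 (-0.32, 0.0402), without H0R replicate 3 (-0.43, 0.0388) and with the replicate block (0.0374). The block also called MMP9 (-0.23, 0.0264). Between selected lines the block added ADAM15 (0.27, adjusted p = 0.0099) and ADAMTS1 (-0.32, 0.0411). ADAMTS1 was also called without A0R replicate 3 (0.0427) and MMP11 without A3R replicate 1 (-0.36, 0.0433).

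**Figure D4:**
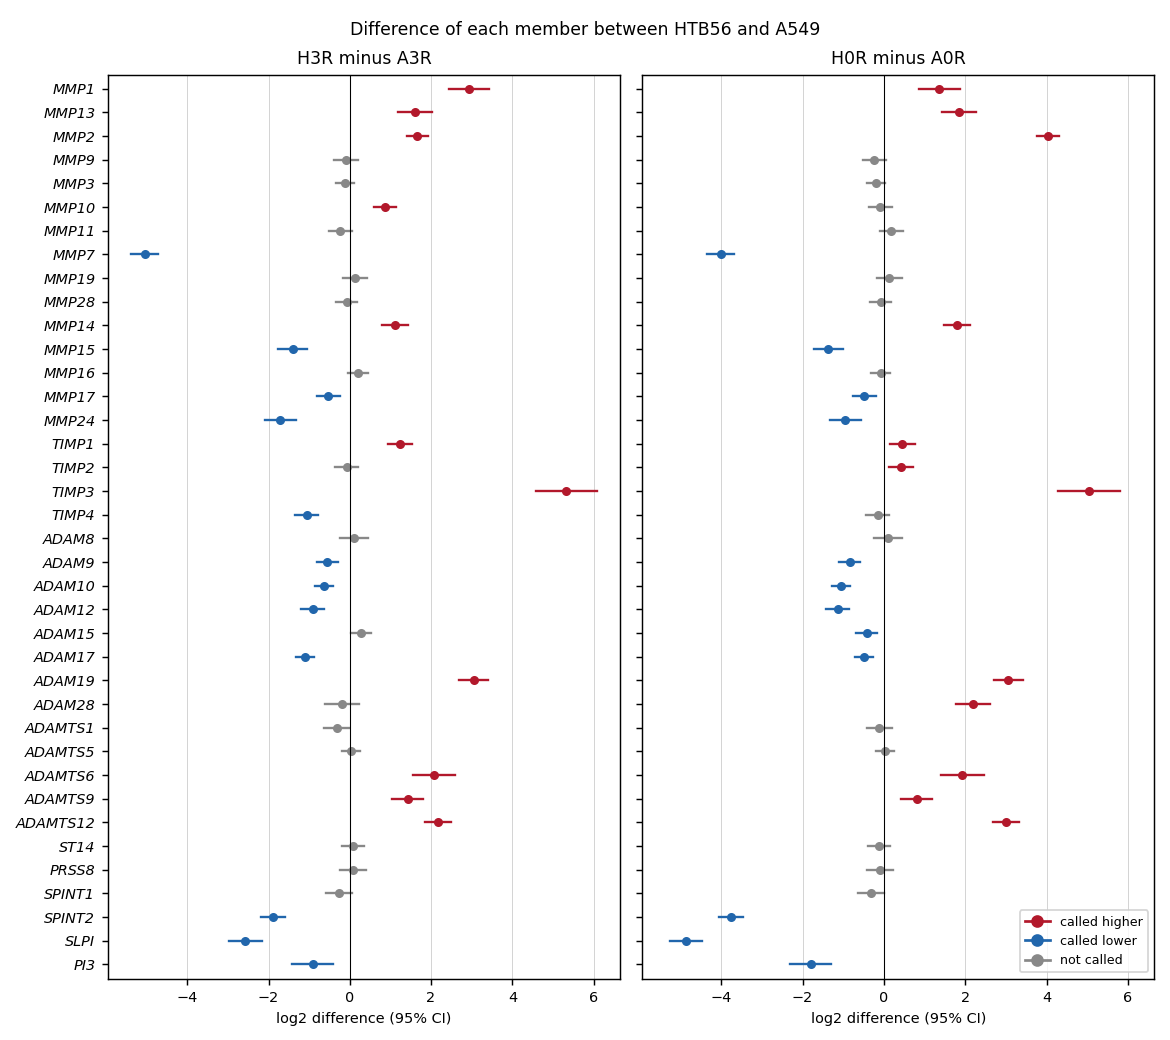
Log2 difference with its 95% confidence interval for the 38 tested members, H3R minus A3R on the left and H0R minus A0R on the right. Red marks genes called higher in HTB56 and blue lower. TIMP3 stands at 5.33 after selection and 5.05 before it, MMP7 at -5.05 after and -4.02 before, and MMP2 at 1.66 after and 4.03 before.

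Related genes outside the list were read from 5 lists. Of 28 other MMP, ADAM, ADAMTS and astacin-type genes tested, 3 were called higher and 2 lower in HTB56, or 17.9%, against 19.5% of all genes. ADAM22, a catalytically inactive ADAM of nerve cells, fell by 1.07 in HTB56 (adjusted p = 8.82e-06) and rose by 0.50 in A549 (adjusted p = 0.0309), where it was the 1 gene of the list called, and these changes differed by -1.57 (adjusted p = 1.3e-05). BMP1, the protease that trims procollagens, rose by 0.44 in HTB56, PAPPA by 0.39 and ADAMTS20 by 0.28, and ADAM23 fell by 0.60. Of 25 activators, partners and inhibitors of metalloproteases, 1 was higher and 5 were lower in HTB56 (24%). FURIN, the convertase that activates the MMP14 precursor and ADAM precursors, rose by 0.86 (SE 0.15, adjusted p = 0.000692). SPOCK1, a matrix proteoglycan, fell by 1.61 (adjusted p = 1.66e-07), SPARC by 1.04 (adjusted p = 0.00392) and TSPAN14, a tetraspanin that escorts ADAM10, by 0.67 (adjusted p = 0.000731). PCSK7 fell by 0.52 (adjusted p = 0.00238), and RECK, a membrane-anchored MMP inhibitor, by 0.40 (adjusted p = 0.0221). In A549, where 1.75% of all genes were called, SPOCK3 rose by 0.60 (adjusted p = 0.0272), the 1 of 25 called. ADAMTS20, PCSK7, RECK and SPOCK3 were named after their values were seen.

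To be set beside the shares that follow, 19.5% of all genes were called in HTB56 and 1.75% in A549. Of 27 further membrane serine proteases and kallikreins, PRSS23 rose by 0.87 and PRSS12 and HTRA1 fell by 1.11 and 0.78 in HTB56 (11.1% of the list). HTRA1, a secreted serine protease of the matrix, rose by 0.52 in A549 (adjusted p = 0.0309), the 1 call there, and its changes differed between the lines by -1.30 (adjusted p = 9.77e-05). Of 16 further serine protease inhibitors, TFPI and SERPINB1 rose by 0.67 and 0.65 and TFPI2 fell by 0.48 in HTB56 (18.8%), while SERPINA3, an inhibitor of chymotrypsin-like enzymes, rose by 1.59 (adjusted p = 4.01e-05) and TFPI by 0.57 (adjusted p = 0.0336) in A549. Of 23 cathepsins and cystatins, CST3, LGMN, CTSS and CTSH rose by 0.80, 0.67, 0.62 and 0.55 in HTB56, and CTSV and CTSO fell by 0.65 and 0.45 (26.1%). Limma called 0 of these 23 in A549, where 3 had an unadjusted p below 0.05. CTSV and CTSO were also named after their values were seen.

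**Figure D5:**
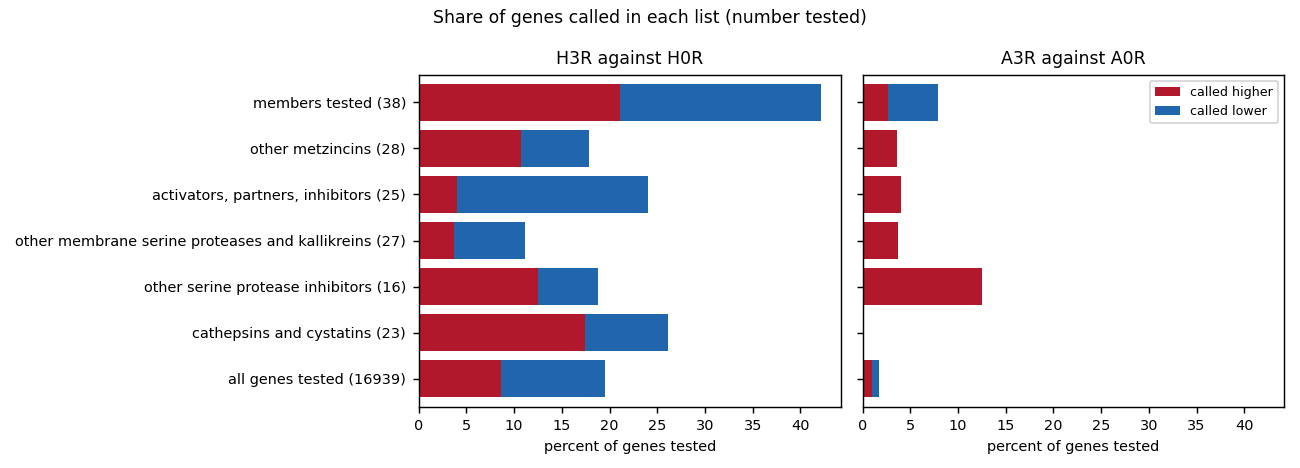
Percent of the genes tested in each list that limma called higher (red) or lower (blue), H3R against H0R on the left and A3R against A0R on the right, with the number tested in brackets. In HTB56 the 38 members tested reach 42.1%, against 19.5% of all genes, and in A549 they reach 7.89%, against 1.75%. The lists were chosen with earlier results of these data known, so these shares do not test them against all genes.

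Promoter sequence could be matched for 18 members at 19 start sites. The median number of CpG in the 250 bases before the start was 22 for these sites and 11 over all 35116. The 35116 sites belong to 27305 genes with no restriction by gene type, so the 2 sets of sites were not matched. MMP7 and MMP10 were the 2 member promoters at or below the 25th percentile of 3 CpG, and also the 2 that held TATAAA. Of the sheddase genes that moved in opposite directions in HTB56, ADAM17 had 31 CpG and ADAM10 had 25, both above the 75th percentile, and ADAM15 had 36. A motif match describes letters in the window and not a site in use.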

How the data were processed

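Messenger RNA of 12 samples in 4 groups of 3 was measured on Affymetrix whole-transcript arrays. The values are log2 signals that the authors deposited. The submitters' processing notes name RMA and Expression Console of Affymetrix, without a version. RMA corrects background, normalizes arrays to each other and summarises probes, so changes of dim genes are compressed and a shift of all mRNA would be removed. Array medians lay between 5.55 and 5.67. All 33297 probe sets had a value on each array. The platform annotation gave 19460 of them 1 symbol and 1754 several, and those with several entered no result. Entrez identifiers of 19429 matched RefSeq (GRCh38.p14), and 0 symbols needed an update. Promoter sequences are from the RefSeq table of that assembly.

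Probe sets exceeding the array's 20th percentile (3.48 on average) on 3 or more arrays were kept, and the brightest per gene was tested, which gave 16939 genes. Means per group were fitted over all 12 arrays with limma 3.58.1 in R 4.3.3 (lmFit, eBayes, two-sided, Benjamini-Hochberg over all genes, threshold 0.05), which also gave the confidence intervals, and the fit was tested on simulated data. Figures were drawn with matplotlib 3.10.9 under Python 3.11.15. The members, lists and role groups were chosen with earlier results of these data known. All members are described, with every array's value for those called within a line and up to 4 called genes per further list. Called genes beyond those 4 were named after their values were seen.

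The groups share replicate numbers, whose meaning the labels do not give. After subtraction of group means, same-numbered arrays of different groups had r of 0.16 to 0.549 across genes and differently numbered ones -0.417 to 0.204, so the numbers pair the samples, from the data. The main calls and the shares of all genes come from the fit without this pairing. Values with this number as a replicate block are given where a call changes. Alternatives were the filter, the choice of probe set, median centring, cyclic loess, the arrays in the fit, the block, the estimate of spread, array weights, a threshold of 0.01 and leaving out each array.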

Additional observations from a re-analysis of the deposited data

Results flagged for a closer look

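The changes of 13 members differed between the lines by the test of the difference itself (limma adjusted p below 0.05), given here as the change in HTB56 minus the change in A549 on the log2 scale. It was positive for SLPI (2.30), SPINT2 (1.86), MMP1 (1.57), MMP10 (0.95), TIMP1 (0.77) and ADAM15 (0.70). It was negative for ADAM28 (-2.39), MMP2 (-2.37), MMP7 (-1.03), TIMP4 (-0.91), ADAMTS12 (-0.84), MMP14 (-0.70) and ADAM17 (-0.62). For SLPI and MMP7 the call within a line was that of A549, and for the other 11 it was that of HTB56. Signals were dim for MMP7 in HTB56 and for MMP10 and ADAM28 in A549, where changes are compressed. Groups of 3 arrays are too small for a test of single outlying arrays.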

How the results depend on the processing

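Of the 79 calls of a member in 1 of the 5 comparisons, 68 held under every alternative run (at most 23), 2 were lost at a threshold of 0.01 alone and 9 under some other setting. MMP14 also lost the call of its difference with median centring (-0.67, adjusted p = 0.0558). No call changed its direction. Of 111 member results not called, 12 were called under 1 alternative or more. Leaving out each array in turn gave 2 to 4 members called in A549, 14 to 17 in HTB56, 11 to 14 for the difference of the changes, 23 to 24 between selected and 22 to 25 between unselected lines. The difference of the changes had 8 members called at the threshold of 0.01. Over all genes, A3R against A0R gave 297 calls, 179 with the 6 arrays compared, 142 at 0.01, 562 with the replicate block and 179 to 286 without 1 array, the lowest without A0R replicate 1 (179), A0R replicate 2 (192) and A3R replicate 2 (192). H3R against H0R gave 3298 calls and 2039 at 0.01, and the difference of the changes 2000, 1036 at 0.01 and 3458 with the replicate block. Beyond the calls it added that are named in the report, the block changed no call of a member. The cause of these shifts was not tested. Signals near the 20th percentile, such as MMP3, MMP12, MMP16 and ADAMTS5, limit what can be read of those genes.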
